A study of Homo sapiens with 2 samples.

Results

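The MHC class II presentation genes described here are CIITA, CD74, HLA-DRA, HLA-DRB1, HLA-DPA1, HLA-DPB1, HLA-DMA, HLA-DMB, HLA-DOA and CTSH, 10 of the 19775 genes named on the array. They were read by every probe set that the platform annotation assigns to 1 of these symbols, alone or together with another HLA gene, which gave 27 of 54675 probe sets. The data are 2 Affymetrix arrays of KG1 cells, a human line from an acute myeloid leukaemia that resembles early myeloid progenitors. The group siRNA-Tbet (1 array) received 1.98 µg of siRNA against T-bet and the group siRNAc (1 array) the same amount of a control siRNA, in each case by electroporation. Both groups were then rested for 5 h and stimulated with IL-18 at 10 ng/ml for 12 h, so no unstimulated or untransfected cells enter the comparison. With 1 array per group no difference has a replicate error, no test was possible and no p-value is given.

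MHC class II molecules are pairs of an α and a β chain that show peptides from the endosomal route to CD4+ T cells. They are carried mainly by professional antigen-presenting cells, while other cells acquire them on exposure to interferon-γ. The chains assemble in the endoplasmic reticulum around the invariant chain CD74, proteases trim CD74 in the endosome, and HLA-DM exchanges the remaining fragment for peptide under the restraint of HLA-DO. CIITA, a coactivator that does not bind DNA itself, drives transcription of the class II chain genes, CD74 and the HLA-DM genes through RFX, CREB and NF-Y factors seated on the X and Y boxes of their promoters. T-bet, encoded by TBX21, is a transcription factor of type 1 immune responses and a known activator of the interferon-γ gene IFNG.

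The class II genes differed little between the cells given siRNA against T-bet and the control cells. None of the 10 members reached a 1.5-fold difference in either direction, a size reached by 4.92% of the 12164 measured genes, while 0.543% reached 2-fold. At the smaller size of 1.2-fold, 1 member was higher and 1 was lower, where 10.3% of the measured genes were higher, 14.9% were lower and 25.2% passed in either direction. The member that was higher was CTSH, the protease cathepsin H, at 37.3% above control, and the one that was lower was HLA-DMB, the β chain of HLA-DM, at 17.4% below control. The highly abundant chain transcript HLA-DRA was 11.4% higher and CD74 was 11.3% lower. These shares of the members are close to the shares of all measured genes.

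In the same 2 arrays the targeted transcript TBX21 read 1839 in siRNA-Tbet cells against 3581 in control cells, or 1.95-fold less, as the labels would have it. IFNG had 31243 and 35136, or 11.1% less with siRNA-Tbet. Signals are MAS5 intensities in arbitrary units, and both arrays share a trimmed mean of 1000. The array medians, 144.2 for siRNA-Tbet and 146.4 for siRNAc, were the lowest values used, with anything dimmer set to them, and a probe set counted as measured if either array exceeded it. Of the 27 member probe sets 19 were measured, where 29051 of all 54613 probe sets other than controls were. By gene, 12164 of the 19775 named on the array were measured. The progenitor markers CD34 (17130 and 15839) and MYB (26265 and 20627) were bright, and 5 of 6 progenitor markers were measured. SPI1 gave 1566 with siRNA-Tbet and 1523 with siRNAc. FLT3, at 253 and 248, and MPO, at 210 and 127, were dim, and MPO exceeded the median on the siRNA-Tbet array alone. KIT was not measured. Of the markers of other class II-bearing cells with a named probe set, 4 of 5 for B cells, 2 of 6 for monocytes and 4 of 6 for dendritic cells were measured. The sum of each marker's highest signal was 2466 on both arrays for B cells, 821 with siRNA-Tbet and 843 with siRNAc for monocytes, and 1454 and 1975 for dendritic cells. Measured on both arrays were the B cell markers CD79B (1293 with siRNA-Tbet and 1114 with siRNAc), CD79A (528 and 530) and CD22 (425 and 537). So were the monocyte marker VCAN (417 and 412) and the dendritic cell markers CCR7 (594 and 857), FCER1A (414 and 390) and CD1C (225 and 313). PAX5, CD14, CD163, MSR1, FCN1, CD1A and CLEC10A lay below the array medians. MS4A1 (B cells), CSF1R (monocytes) and LAMP3 (dendritic cells) exceeded the median on the siRNAc array alone. The part of such cells in any class II difference was not tested. In RNA from bulk cultures, fewer expressing cells and less RNA per cell cannot be told apart.

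The promoters of the members are shown because CIITA is known to act on class II genes through short promoter elements. The windows show which letters of these elements lie within the printed stretch, and some matches lie outside it. For HLA-DPA1 only the window of the downstream start site is printed, and its upstream start site has no match. Of the 10 members, 8 matched an entry in the RefSeq promoter set of GRCh38.p14, and each window below spans 125 to 16 bases before the start site, 5′ to 3′ along the gene. Capitals mark matches on either strand to the X box core AGNAAC, to TGATGA, which falls in the X2 box beside it, and to the Y box core ATTGG. The last of these reads CCAAT on the other strand.
HLA-DRB1, chr6:32589864-32589973, minus strand: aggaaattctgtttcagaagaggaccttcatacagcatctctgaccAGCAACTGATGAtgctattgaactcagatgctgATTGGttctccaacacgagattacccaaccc
HLA-DMA, chr6:32953113-32953222, minus strand: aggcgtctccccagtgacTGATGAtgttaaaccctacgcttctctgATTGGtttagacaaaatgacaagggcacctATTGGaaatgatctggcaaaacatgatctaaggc
HLA-DMB, chr6:32941044-32941153, minus strand: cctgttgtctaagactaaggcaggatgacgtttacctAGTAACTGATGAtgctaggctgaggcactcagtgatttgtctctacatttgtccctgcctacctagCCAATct
HLA-DOA, chr6:33009607-33009716, minus strand: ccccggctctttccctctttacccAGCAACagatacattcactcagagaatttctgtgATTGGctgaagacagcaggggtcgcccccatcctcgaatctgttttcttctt
HLA-DPA1, chr6:33073665-33073774, minus strand: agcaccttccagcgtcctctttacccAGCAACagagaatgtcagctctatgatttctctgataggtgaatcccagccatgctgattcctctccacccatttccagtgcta
HLA-DPB1, chr6:33075865-33075974, plus strand: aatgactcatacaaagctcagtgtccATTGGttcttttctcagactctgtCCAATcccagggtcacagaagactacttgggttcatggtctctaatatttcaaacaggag
CD74, chr5:150412926-150413035, minus strand: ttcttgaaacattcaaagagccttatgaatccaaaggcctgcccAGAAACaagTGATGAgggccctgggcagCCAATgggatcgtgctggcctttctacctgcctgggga
CTSH, chr15:78945062-78945171, minus strand: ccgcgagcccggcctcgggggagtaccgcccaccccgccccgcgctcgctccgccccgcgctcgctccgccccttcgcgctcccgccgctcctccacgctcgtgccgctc

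These letters were found unevenly among the members, and the motifs were chosen with the members' promoters in view. AGNAAC occurred in 6 of the members' 9 promoters (HLA-DPA1 has 2 start sites) and in 42.4% of all 35116 promoters of the same 300 bases. TGATGA occurred in 5 of the 9 and in 10.9% of all promoters, and ATTGG in 6 of the 9 and in 34.6%. The TGATGA of HLA-DPA1 lay after the start site on the opposite strand, outside the printed window. HLA-DRB1 and HLA-DMB hold AGNAAC and TGATGA end to end without overlap, while HLA-DMA holds TGATGA and ATTGG, the latter at 2 places, but no AGNAAC within the window. The AGNAAC matches of HLA-DMA lay farther upstream, at -216 and -137 from the start site. AGNAAC followed on the same strand by ATTGG, with 16 to 41 bases between their starts, was found in 2 of the 9 and in 1.29% of all promoters. That spacing was 33 bases in HLA-DRB1 and 34 bases in HLA-DOA, and the other class II chains HLA-DRB5, HLA-DQA1 and HLA-DQB2 had 33, 34 and 16 bases. The HLA-DQB2 pair lay farther upstream than the others, at -173 and -157, and its spacing is the smallest that was allowed. CTSH, the member that encodes a general lysosomal protease, had none of the 3 motifs in its 300 bases. HLA-DPB1 had ATTGG on both strands and neither of the others. A match is a description of letters in this window and not of a bound site.

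**Figure D1:**
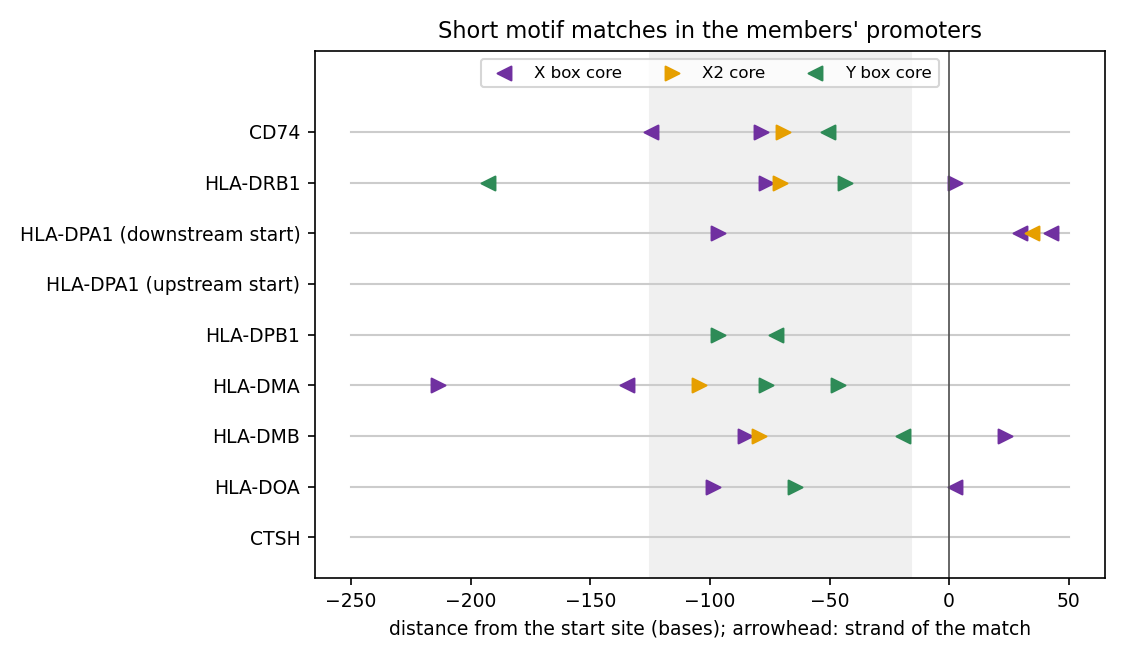
Matches to the X box core, the X2 core and the Y box core in the members' promoters, by distance from the start site in bases. Arrowheads give the strand, and the shaded band gives the windows printed in the text. In HLA-DRB1 and HLA-DOA the X box core stands 33 and 34 bases before the Y box core, and CTSH and the upstream start of HLA-DPA1 have no match.

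CIITA, the master regulator, was dim and slightly lower with siRNA-Tbet. Its brighter probe set gave 299 with siRNA-Tbet and 323 with siRNAc, and its other measured probe set gave 167 and 196. Both thus lay a little lower with siRNA-Tbet, while the third probe set, at 13.1 and 23.8, was below the array medians. The log2 ratio of siRNA-Tbet over siRNAc was -0.11 at the brighter and -0.23 at the dimmer one. The technical spread at such signals was 0.41 on the log2 scale. This spread is the standard deviation between probe sets of the same gene, and it leaves out any variation between cultures and arrays. CIITA therefore differed by less than the disagreement usual between 2 probe sets of a gene this dim.

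The α and β chains of HLA-DR, the most abundantly expressed class II molecule in most cells, were among the bright transcripts. HLA-DRA, the α chain with little variation between people, gave 27218 with siRNA-Tbet and 24432 with siRNAc at its brighter probe set. The other HLA-DRA probe set gave 17050 and 15700. Both probe sets were therefore higher with siRNA-Tbet, by 11.4% and 8.6%. Their log2 ratios of 0.16 and 0.12 compare with a technical spread of 0.12 at that signal, and they stood at percentiles 85.7 and 76.5 among the 2905 probe sets of the brightest signal decile, whose median ratio was 0.04. Array fluorescence saturates near its upper end, which can make differences look smaller. The highest signals of any probe set were 69760 with siRNA-Tbet and 62672 with siRNAc, and saturation at HLA-DRA was not tested.

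HLA-DRB1, the main β chain partner of HLA-DRA, was read by 6 probe sets, of which 5 are shared with other HLA genes. The only probe set assigned to HLA-DRB1 alone gave 19594 with siRNA-Tbet and 18686 with siRNAc, a log2 ratio of 0.07 that is within the spread of 0.12. It carries the suffix _x_at, which marks probes that can also read related transcripts. Of the shared probe sets, 4 were measured, 2 higher and 2 lower with siRNA-Tbet. The one shared with HLA-DRB5, HLA-DRB4 and HLA-DQB1 gave 20978 and 18701 (log2 ratio 0.17). The one shared with HLA-DRB4, HLA-DRB3 and HLA-DQB1 gave 15731 and 13565 (0.21). Both stood higher with siRNA-Tbet. The one shared with HLA-DRB4 alone gave 14506 and 15573 (-0.10). The one shared with HLA-DRB6, HLA-DRB5, HLA-DRB4, HLA-DRB3 and HLA-DQB1 gave 870 and 925 (-0.09). These 2 stood lower, so the DRB probe sets disagree in direction, and the level of HLA-DRB1 itself is uncertain. The fifth shared probe set, read with HLA-DRB5, HLA-DRB4 and HLA-DRB3, gave 19.1 and 35.1 and was not measured.

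Both HLA-DP chains lay close to control. HLA-DPA1, the α chain, gave 4951 with siRNA-Tbet and 5036 with siRNAc at its brightest probe set. Its others gave 2627 and 2830, and 472 and 525. All 3 were lower with siRNA-Tbet, with log2 ratios of -0.02, -0.11 and -0.15, each smaller than the technical spread at its signal (0.15, 0.17 and 0.34). HLA-DPB1, the β chain, gave 3120 and 2995, a log2 ratio of 0.06 against a spread of 0.17. Its dimmer probe set, at 117.5 with siRNA-Tbet and 117.6 with siRNAc, was not measured. The ratios of the 2 chains differed by -0.08 (HLA-DPA1 minus HLA-DPB1), with a combined technical spread of 0.23.

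**Figure D2:**
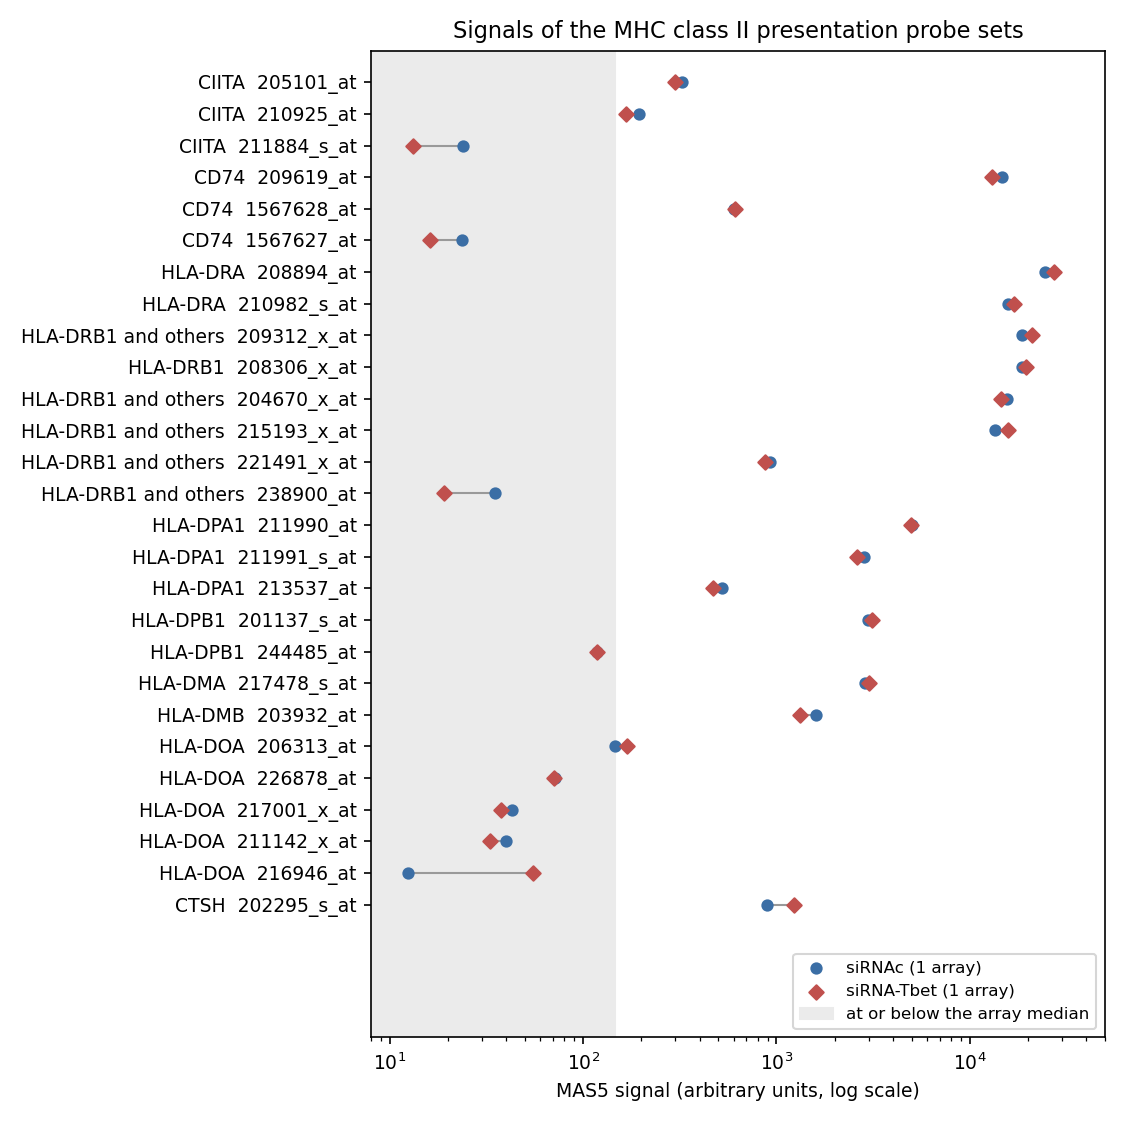
MAS5 signal (arbitrary units, log axis) of each of the 27 probe sets of the class II members on the siRNA-Tbet array (diamonds) and the siRNAc array (circles), joined by a line; the shaded range lies at or below the array median. The bright probe sets of HLA-DRA, HLA-DRB1 and CD74 nearly coincide between the arrays, and the 8 probe sets in the shaded range were not measured.

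CD74, the invariant chain that guards the peptide groove, gave 13058 with siRNA-Tbet and 14714 with siRNAc at its brightest probe set. That is 11.3% lower, a log2 ratio of -0.17 against a technical spread of 0.12, at percentile 6.7 of the brightest signal decile. The other measured probe set of CD74 gave 607 and 600, a log2 ratio of 0.02, so it did not repeat the lower value. The third CD74 probe set, at 16.1 and 23.5, was not measured. At their brightest probe sets HLA-DRA and CD74 lay on opposite sides of control. Their log2 ratios differed by 0.33, with a combined technical spread of 0.17.

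The peptide editors HLA-DM and HLA-DO gave mixed values. HLA-DMA, the α chain of HLA-DM, gave 3025 with siRNA-Tbet and 2861 with siRNAc, a log2 ratio of 0.08 within the spread of 0.17. HLA-DMB, the β chain, gave 1327 and 1606, a log2 ratio of -0.28 with a spread of 0.21, at percentile 11.4 of its signal decile. Each of these chains has 1 probe set, so no second reading exists for either. The 2 partner chains thus lay on opposite sides of control, and their log2 ratios differed by 0.36 with a combined technical spread of 0.27. HLA-DOA, the α chain of HLA-DO, lay at the edge of measurement. Its brightest probe set gave 169 with siRNA-Tbet and 146 with siRNAc, the latter just under that array's median, so it was at least 1.15-fold higher. A probe set that is measured only through 1 array has to be higher there, so this direction carries no weight. The other 4 probe sets of HLA-DOA were below the medians, with signals from 33.0 to 71.0 on the siRNA-Tbet array and from 12.4 to 71.2 on the siRNAc array.

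CTSH, or cathepsin H, an aminopeptidase of the lysosome that takes part in protein breakdown, had the largest difference of the 10. It gave 1227 with siRNA-Tbet and 894 with siRNAc, 1.37-fold higher, at its only probe set. The log2 ratio of 0.46 was 1.77 times the technical spread of 0.26 and stood at percentile 96.6 among the 2905 probe sets of its signal decile, whose 5th to 95th percentiles ran from -0.42 to 0.39. It was the only 1 of the 19 measured member probe sets outside those percentiles of its own decile. By definition 5% of all measured probe sets lie beyond each end of that range, so 1 of 19 is no more than the share over all. CTSS, or cathepsin S, the protease best known for trimming CD74, was chosen for this comparison with its values known. It gave 5560 with siRNA-Tbet and 6340 with siRNAc, a log2 ratio of -0.19, with 3 of 3 probe sets lower.

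**Figure D3:**
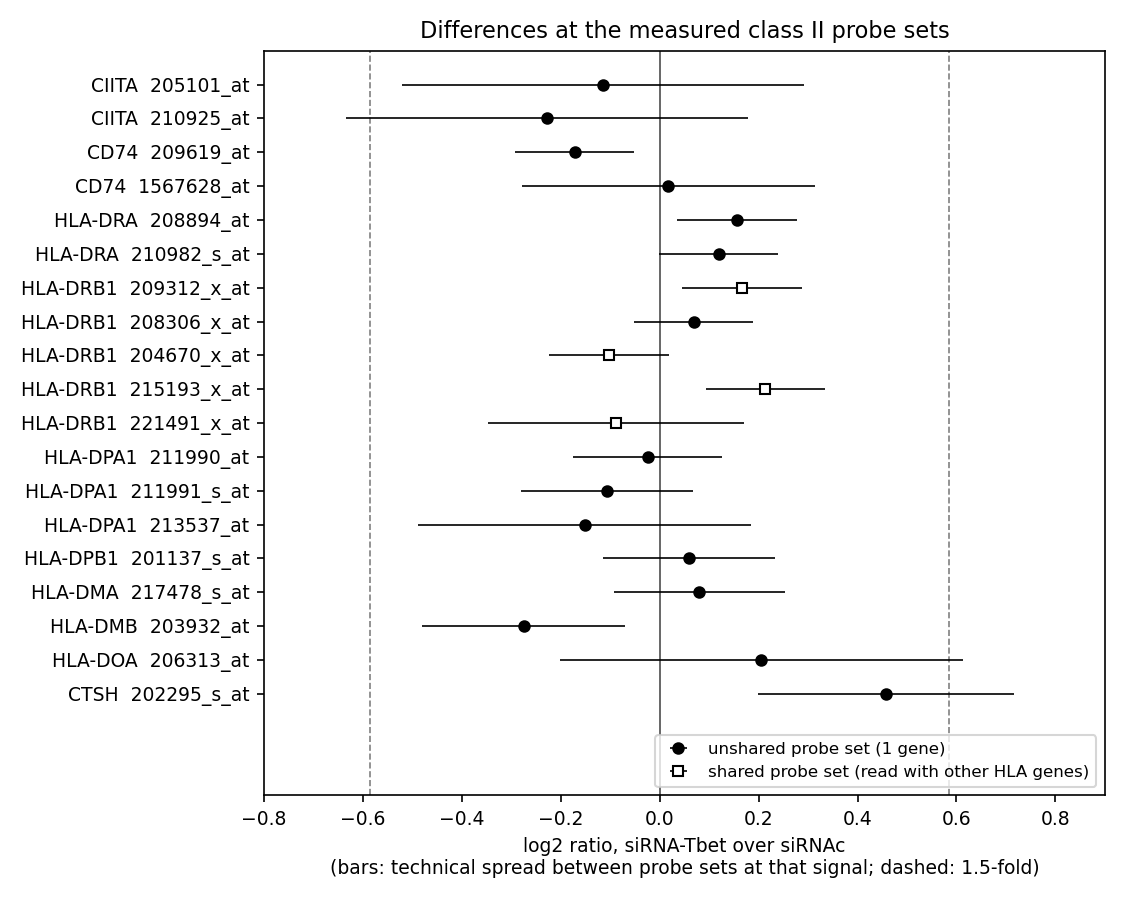
Log2 ratio of siRNA-Tbet over siRNAc at the 19 measured probe sets of the class II members, with bars giving the technical spread between probe sets of a gene at that signal and dashed lines at 1.5-fold. Filled circles are read with 1 gene and open squares with several HLA genes; CTSH lies farthest to the right at 0.46, and every point lies between the dashed lines.

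Taking 1 probe set per gene, 6 of the 10 members were higher and 4 lower with siRNA-Tbet, where 46.3% of all measured genes were higher. Without HLA-DOA, 5 of 9 were higher. The median log2 ratio of the members was 0.06 and that of all measured genes was -0.02. Their ratios ran from -0.28 to 0.46 with a standard deviation of 0.21 between members, against 0.27 over all measured genes. The differences of HLA-DRA, CD74, HLA-DMB and CTSH exceeded 1 technical spread, which is 4 of 10 members where 30.0% of all measured genes did so. HLA-DRA fell below its spread of 0.12 after quantile normalization (0.11) and with the signal trend removed (0.09). None of the 10 exceeded 2 technical spreads, where 5.85% of all measured genes did. Counted by probe set, none of 19 reached 1.5-fold, where 6.51% of all measured probe sets did, and 10 were higher and 9 lower, where 48.4% of all measured probe sets were higher. Of the 15 measured probe sets read with 1 gene, 8 were higher and 7 lower. Probe sets of a gene read the same RNA and are not replicates.

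**Figure D4:**
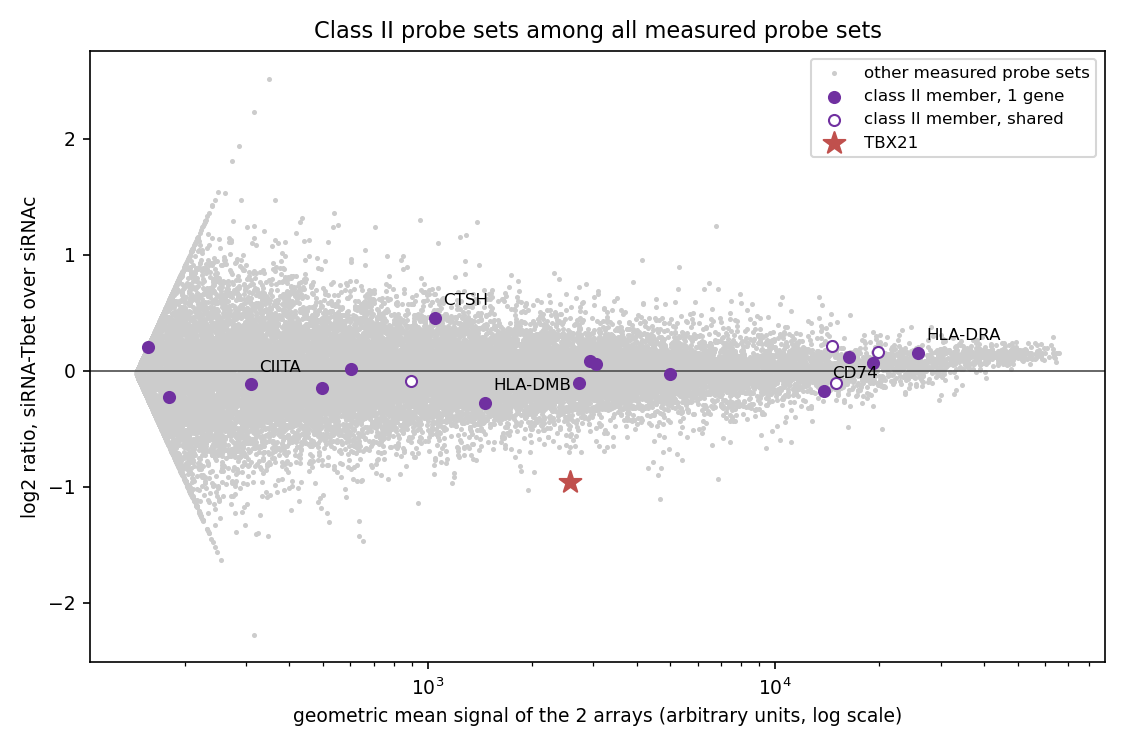
Log2 ratio of siRNA-Tbet over siRNAc against the geometric mean signal of the 2 arrays (arbitrary units, log axis) for all 29051 measured probe sets in grey, with those of the class II members in purple (open where shared) and TBX21 as a star. The members lie within the grey cloud at every signal, while TBX21, at -0.96, lies at its lower edge.

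The remaining class II chains were read less cleanly. Of 8 such genes, 7 were measured at the probe set that stood for them. Of these 5 were higher and 2 lower with siRNA-Tbet, with a median log2 ratio of 0.17. HLA-DRB3, HLA-DRB5 and HLA-DQA2 rest on shared probe sets, so part of this count repeats HLA-DRB1 readings. HLA-DRB4 was left out because a probe set of its own, below the array medians, stood for it. The 4 measured probe sets assigned to HLA-DRB4 are all shared with HLA-DRB1. HLA-DQA1, the α chain of HLA-DQ, was picked after its values were seen because its 4 measured probe sets lay on the same side. Its brightest probe set of its own gave 578 and 513 (log2 ratio 0.17), its others 310 and 230 (0.43) and 222 and 187 (0.25), and the one shared with HLA-DQA2 gave 585 and 406 (0.53). All 4 were higher with siRNA-Tbet, at signals where the technical spread was between 0.30 and 0.41. HLA-DQB1, its β chain partner, did not do the same. Of its 9 measured probe sets, shared ones included, 5 were higher and 4 lower, with log2 ratios from -0.61 to 0.21. HLA-DOB, the β chain of HLA-DO, gave 463 and 556, a log2 ratio of -0.26 against a technical spread of 0.34. Its other probe set, at 143 and 164, was measured only on the siRNAc array and gives no second reading of the direction.

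Genes that carry CIITA to the promoters had values on both sides of control. All 10 were measured, 6 higher and 4 lower, with a median log2 ratio of 0.04. None reached 1.5-fold at the probe set that stood for it. The RFX subunits RFX5, RFXAP and RFXANK, which bind the X box, had log2 ratios of 0.04, -0.07 and -0.09, and the other probe set of RFXAP gave 0.27. NFYA, the subunit of NF-Y that contacts the Y box, gave 3815 with siRNA-Tbet and 2822 with siRNAc, 1.35-fold higher. NFYA was higher at 5 of 5 probe sets, with log2 ratios from 0.01 to 0.60, while the other NF-Y subunits NFYB (0.06) and NFYC (-0.12) had probe sets on both sides. CREB1, which binds the X2 box, had a log2 ratio of -0.11 at its brightest probe set, and 4 of its 7 probe sets were higher and 3 lower, from -0.23 to 0.22. The histone acetyltransferases KAT2B, EP300 and CREBBP, coactivators that join CIITA, had 0.27, 0.03 and 0.07.

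The route from interferon-γ to CIITA was likewise close to control. Of 7 genes with a named probe set 6 were measured, 4 higher and 2 lower, with a median log2 ratio of 0.07. USF1 was not measured. The ligand IFNG had a log2 ratio of -0.17, with a technical spread of 0.12. The receptor chains IFNGR1 and IFNGR2 had 0.14 and 0.12, and the kinases JAK1 and JAK2 had 0.02 and 0.30. IRF1, a factor that acts on the interferon-responsive CIITA promoter, gave 8589 and 9508, a log2 ratio of -0.15, and was higher (0.11) at its other probe set. IFNGR1 and JAK2 were likewise read in different directions by their probe sets, with 2 of 3 higher for each. JAK1 was higher at the 3 probe sets measured on both arrays, and its dimmest measured one exceeded the median on the siRNAc array alone.

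Among genes of the later steps, lower values outnumbered higher ones, where 46.3% of all measured genes were higher. Of 10 endolysosomal processing genes with a named probe set 6 were measured, 2 higher and 4 lower, with a median log2 ratio of -0.05. CTSL, CTSV, CTSF and LGMN were below the array medians. All 5 measured genes of surface turnover and costimulation (MARCHF8, CD83, CD80, CD86 and CD40) were lower. Their values at the probe set that stood for each ran from -0.43 to -0.05, with a median of -0.22. MARCHF8 was slightly higher (0.04) at its other probe set. The other probe sets of CD80 and CD86 were lower still, down to -0.82 and -0.55. At the probe sets that stood for them, CTSB, CTSD, CD83, CD86 and CD80 were lower by less than the technical spread. CTSS, CST3, MARCHF8 and CD40 were lower by more. Of the 4 measured dendritic cell markers, CCR7 and CD1C were lower, with log2 ratios of -0.53 and -0.47, and FCER1A was slightly higher, with 0.09. LAMP3, at 142 with siRNA-Tbet and 221 with siRNAc, was measured only on the siRNAc array, so its direction carries no weight. The part of dendritic cells in these values was not tested. Over all 41 listed pathway genes with a named probe set, 34 were measured, 17 were higher and 17 lower, and the median was -0.01. None passed 1.5-fold in either direction at the probe set that stood for it. Some of their other probe sets did, those of CD80 (-0.82) and NFYA (0.60) among them. The class I presentation genes, the most similar set, gave a median of 0.01 across 13 measured genes, with 7 higher and 6 lower, HLA-F among the latter at a probe set measured on the siRNAc array alone. That median turned to -0.07 after quantile normalization and to -0.05 with the signal trend removed, so no difference between the class I and class II sets can be read from it.

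**Figure D5:**
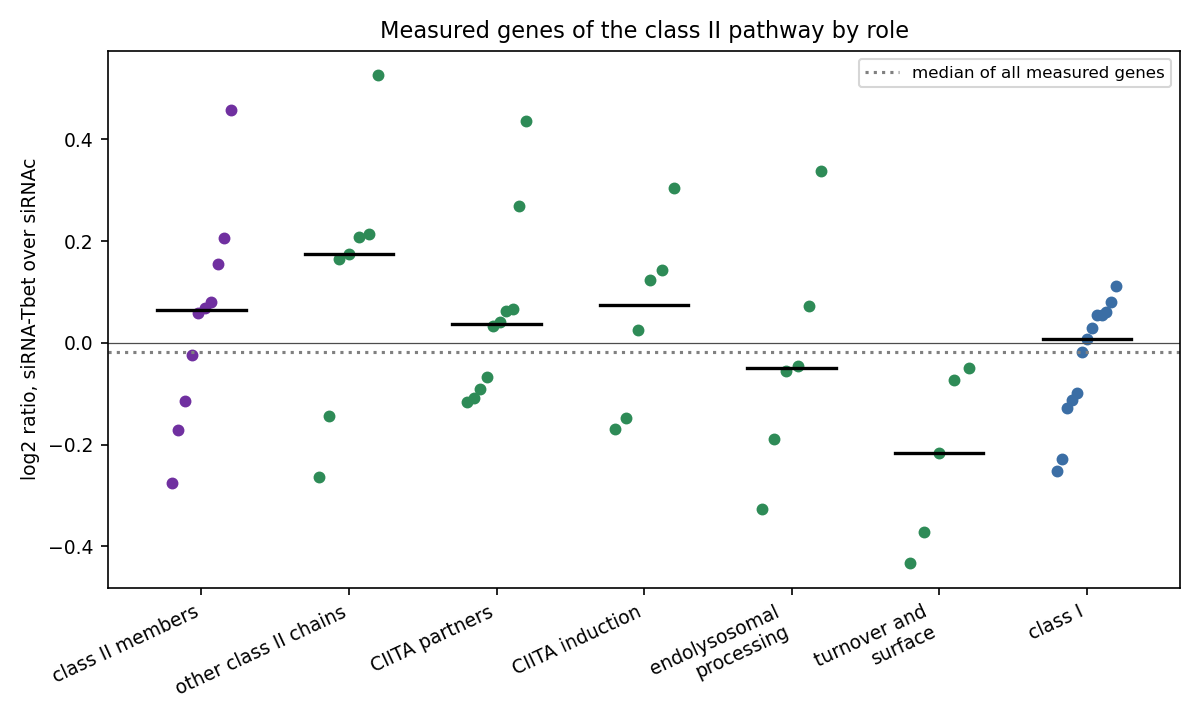
Log2 ratio of siRNA-Tbet over siRNAc for the measured genes of the class II members, of 5 groups of other pathway genes by role and of the class I genes, 1 point per gene, with black bars at the group medians and a dotted line at the median of all measured genes (-0.02). The medians run from -0.22 for turnover and surface genes to 0.17 for the other class II chains, and no point reaches 1.5-fold (0.58).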

How the data were processed

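Total RNA of the 2 cultures was converted to biotinylated cRNA from 1 µg and hybridised to Affymetrix arrays, per the labels' protocols. The deposited values are linear signal intensities made with MAS5, per the submitters' processing notes, with version and settings not given in the sources used here. Scanner files were not used here. Because MAS5 takes off the mismatch signal, low intensities are noisy. Gene names came from the platform annotation, with symbols updated by Entrez number through RefSeq (GRCh38.p14): 41097 of 54675 had 1 gene, 1801 several and 11777 none. The 62 control probe sets were left out.

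Each array was floored at its median over the other probe sets, and log2 ratios of siRNA-Tbet over siRNAc were taken without further normalization. For each gene the brightest probe set by mean log2 signal stood for it, unshared and without the suffix _x_at where it had one. A gene counted as measured if that probe set was. All 10 members are named. Pathway genes that carry or induce CIITA are named by rule, and others where the text says so. The members, lists and rules were chosen with earlier results of these data known. The technical spread was computed in 10 signal bins from the 2 brightest probe sets of each gene. Python 3.11.15, pandas 2.3.3, scipy 1.17.1 and statsmodels 0.14.6 were used, and the steps were tested on simulated data. Alternatives were other scalings, floors, probe set choices, folds and summaries.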

Additional observations from a re-analysis of the deposited data

How the results depend on the processing

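Of 93 member values recomputed under other scalings, floors and probe set choices, 92 moved by less than the technical spread. The other, CD74 read by its second brightest probe set (0.02), changed sign. Many of the 92 could not move, because a floor does not reach bright genes and 5 members have 1 measured probe set. The count of 92 is thus no measure of stability. The median log2 ratio of the members stayed above 0 under every alternative run, from 0.02 with second brightest probe sets (5 members) to 0.09 with median scaling. With second brightest probe sets 3 of 5 members were higher. At 1.2-fold 2 members passed, against 0 at 1.5-fold and 0 at 2-fold. The median of the other pathway genes, -0.01 in the main setting, ran from -0.05 with only unshared probe sets to 0.05 with second brightest ones, so it has no settled sign. With 1 array per group no array could be left out, and no paired analysis was possible because each group holds 1 array. Signal near the array medians limits CIITA and HLA-DOA most.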
